A study of Mus musculus with 18 samples.

Results

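Toll-like receptor 4 and the proteins that let it sense and signal were examined as 10 genes, chosen by symbol and found in the count table through their Ensembl identifiers. All 10 were among its 55487 genes: the receptors Tlr2 and Tlr4, the co-receptors Cd14 and Ly96, the adaptors Myd88 and Ticam1, the kinases Irak1, Irak3 and Irak4, and the ubiquitin ligase Traf6. RNA came from BV2 cells, an immortalised mouse microglial line, separated into a nuclear and a cytoplasmic fraction. Cells were untreated (0 h) or had received 10 µM oxyhemoglobin, the oxygen-carrying form of the red blood cell pigment, for 12 or 24 h. The 6 groups of fraction and time held 3 libraries each, 18 in all, and the values below are the authors' mean over the 3 libraries of a group, with no measure of their spread. Both treated times were set against cells at 0 h, with no untreated cells of the same duration, so the treatment and its duration in culture cannot be told apart, and all groups came from the same line, grown in serum-containing medium.

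Toll-like receptor 4 is the surface receptor for bacterial lipopolysaccharide. It binds its ligand together with MD-2, the product of Ly96, and CD14 hands the ligand over; heme and other products of damaged tissue have also been described as activators of this receptor in microglia. Inside the cell the adaptor MyD88 recruits the kinases IRAK4 and IRAK1 and then TRAF6, which leads to NF-kB, while the adaptor TRIF, the product of Ticam1, signals towards interferon genes. IRAK-M, the product of Irak3, is a brake on the same kinases, and Toll-like receptor 2 is a related receptor for bacterial lipoproteins that uses MyD88.

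Summed over the 3 libraries, the nuclear groups held 14652566 to 16031875 counts and the cytoplasmic groups 16537318 to 22379595. Of 12 microglia and macrophage markers, 10 to 11 reached 1 CPM (counts scaled to 1000000 per group) in each nuclear group and 7 in each cytoplasmic group, and P2ry12 was at 0 in all cytoplasmic groups. The 12 summed to 388 to 419 CPM in the cytoplasmic groups. Each set of 4 markers of another class summed to at most 13.4 CPM in any group (oligodendrocytes and erythroid cells), 9.73 for endothelium, 6.05 for fibroblasts, 3.48 for T and B cells, 1.31 for astrocytes and 0.409 for neurons. The microglial sum in the nucleus was 1086, 656 and 582 CPM at 0, 12 and 24 h. The endothelial sum in the cytoplasm was 1.74, 6.59 and 6.40 CPM, and the fibroblast sum was 6.05 CPM in the cytoplasm at 12 h, against 0.0447 to 1.26 elsewhere. The part of these RNAs in the results below was not tested. A single gene identifier took 16.3% to 22.1% of the counts in each nuclear group. The nuclear RNAs Malat1 and Neat1 were higher in the nucleus (log2 ratio to the cytoplasm at 0 h 3.07 and 4.20), and the mitochondrial mt-Co1 was lower (−4.96). Of the other RNAs chosen as cytoplasmic markers, Actb was lower as well (−3.74), but Gapdh was higher in the nucleus (1.59).

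How much of each gene the counts could see differed widely. For all 10 members the length behind the deposited values was the sum over every annotated transcript, within 0.1%. Ribosomal protein genes with many overlapping transcripts tended to hold fewer reads, and other genes were not compared in this way. The 4 with 1 transcript had a median untreated cytoplasmic mean count of 9316, and 1 of them was under 100. The 34 with several transcripts and under 50% of their exonic bases in 1 transcript only had a median of 17.3. Of these 34, 22 were under 100. The sources used here do not give how reads in bases shared by transcripts were assigned. The share of exonic bases that lie in 1 transcript only is therefore given for each member, and 4 members reached 80%: Tlr2 and Ticam1 (both 100%), Traf6 (91.4%) and Tlr4 (84.4%). It was 69.6% for Irak4, 55.1% for Cd14, 50.6% for Ly96, 25.9% for Myd88, 16.8% for Irak3 and 8.12% for Irak1. What those bases are differed as well. In Cd14, 568 of 955 such bases were coding, whereas in Myd88 549 of 667 and in Ly96 389 of 517 lay in a transcript annotated as a retained intron, and in Irak3 none of 616 was coding.

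**Figure D1:**
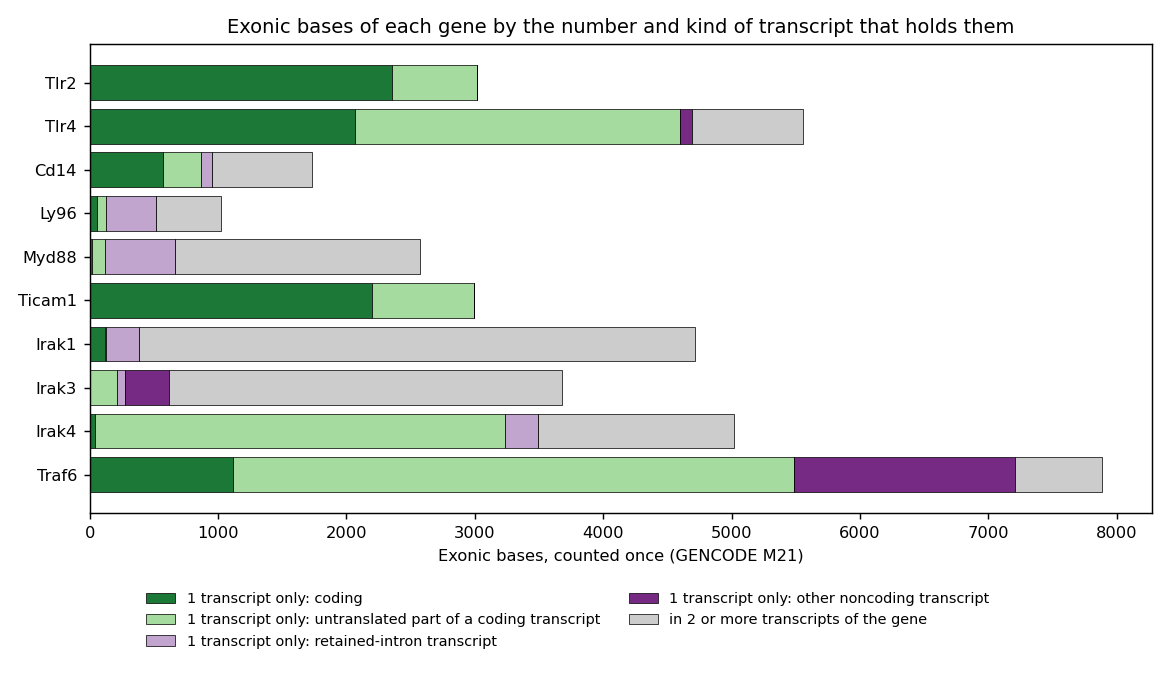
Exonic bases of each member, counted once (horizontal axis), coloured by whether they lie in 1 annotated transcript only and of which kind, or in 2 or more transcripts (grey). Tlr2 and Ticam1 have no grey part, while Irak1 has 383 of 4716 bases in 1 transcript only.

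Promoters are shown for Tlr2, Ticam1 and Traf6, the members with at least 80% of exonic bases in 1 transcript only and a window in the table, and for Irak1, which was lower in the cytoplasm. They are RefSeq windows on GRCm38.p6, 5′ to 3′ on the gene's strand, upstream of the RefSeq start and outside GENCODE exons. Capitals mark matches on either strand to the 10-base NF-kB (kappa B) consensus, to TGANTCA (AP-1), GAGGAA (an ETS core, as bound by PU.1), the interferon-stimulated response element, GGGCGG (Sp1) or TATAAA.
Tlr2, chr3:83841768-83841858, minus strand: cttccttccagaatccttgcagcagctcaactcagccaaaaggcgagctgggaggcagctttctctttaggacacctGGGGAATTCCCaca
Ticam1, chr17:56276787-56277017, minus strand: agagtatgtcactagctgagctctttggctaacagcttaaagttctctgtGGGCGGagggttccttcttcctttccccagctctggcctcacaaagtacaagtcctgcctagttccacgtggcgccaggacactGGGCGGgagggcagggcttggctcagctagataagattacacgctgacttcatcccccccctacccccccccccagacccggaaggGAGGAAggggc
Traf6, chr2:101678170-101678419, plus strand: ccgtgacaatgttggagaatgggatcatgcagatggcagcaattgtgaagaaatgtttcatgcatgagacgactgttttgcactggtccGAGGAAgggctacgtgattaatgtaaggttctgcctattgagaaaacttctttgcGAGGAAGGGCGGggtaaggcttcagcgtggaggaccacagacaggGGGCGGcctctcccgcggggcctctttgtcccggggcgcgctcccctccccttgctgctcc
Irak1, chrX:74023937-74024171, minus strand: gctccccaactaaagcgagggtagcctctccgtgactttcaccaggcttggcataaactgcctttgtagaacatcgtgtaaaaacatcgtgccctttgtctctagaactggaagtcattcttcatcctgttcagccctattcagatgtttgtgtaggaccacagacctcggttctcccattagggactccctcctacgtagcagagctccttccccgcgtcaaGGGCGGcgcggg

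Windows were given for 7 of the 10 members (Tlr2, Myd88, Ticam1, Irak1, Irak3, Irak4 and Traf6). In the 250 bases upstream of the RefSeq start, Tlr2 held 2 overlapping kappa B matches, 173 and 172 bases upstream, and Irak1 held 1, within 21 bases of the start and outside the stretch printed. Such a match was present in 7.25% of the 32851 windows in the table. Ticam1 and Traf6 had no kappa B match and held GAGGAA, which 23.3% of windows hold. All 7 members held GGGCGG, which 32.7% of windows hold, though Irak3 in only 1 of its 2 windows. Myd88 had 1 match to the interferon-stimulated response element (2.98% of windows) and 2 to TATAAA (12.4%), and none of the 7 members had TGANTCA (6.75% of windows). A match describes the letters and was not tied to any measurement here.

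Levels can be compared between genes only per length, and the order depended on the length used. By the authors' deposited TPM, which divides by the summed transcript length, in the untreated cytoplasm, Tlr2 (211), Cd14 (210) and Tlr4 (156) were highest, Ticam1 (107) and Traf6 (101) followed, and Myd88 (13.9), Irak4 (11.6), Ly96 (6.02), Irak1 (0.958) and Irak3 (0.0520) were lowest. A second scale divided all of a gene's normalised CPM by its kilobases in 1 transcript only. It assumes that no read in shared bases was counted, which is not known. In the same group it gave 184 for Cd14, 78.5 for Tlr4, 70.4 for Tlr2, 41.6 for Traf6 and 35.8 for Ticam1. Myd88 was at 33.2, Irak1 at 28.0, Irak4 at 8.21, Ly96 at 6.70 and Irak3 at 0.288. Irak1 thus stood far below both adaptors on the first scale and just below them on the second. Neighbours in either order cannot be separated by replicate spread, which is not known.

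**Figure D2:**
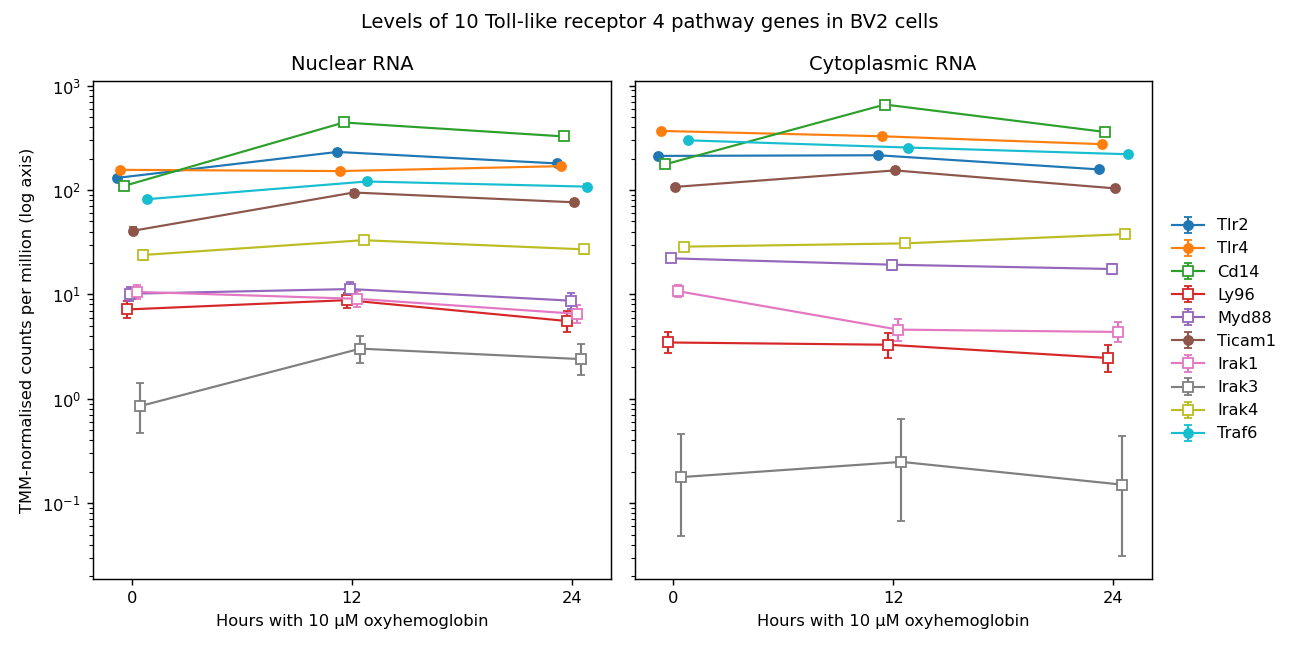
TMM-normalised CPM (log axis) of each gene at 0, 12 and 24 h in nuclear (left) and cytoplasmic (right) RNA. Points are the authors' means over 3 libraries, bars are 95% counting intervals, and open squares mark genes with under 80% of exonic bases in 1 transcript only; Cd14 is highest in both fractions at 12 h and Irak3 lowest throughout.

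The first comparison asked whether nuclear RNA of the pathway differed after 12 h of oxyhemoglobin. Cd14, Irak3 and Ticam1 were at least 2-fold higher and none of the 10 members was 2-fold lower. The log2 ratio and its 95% counting interval come from the summed reads of each group after TMM scaling (trimmed mean of M-values), and a gene was called higher or lower at 2-fold or more with an interval excluding 0. Among all 17295 genes compared in the nucleus, 7.66% were called higher and 6.89% lower. The median log2 ratio was 0.52 over the members and −0.01 over all genes. These intervals cover counting error only, and no p-value is possible without values per library. In RNA from whole dishes, fewer cells that express a gene and less of its RNA per cell cannot be told apart.

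Cd14 (ENSMUSG00000051439, chromosome 18, 36725067 to 36726798, minus strand) encodes the co-receptor that passes lipopolysaccharide to the receptor complex. It stood at 109, 444 and 326 normalised CPM in the nucleus at 0, 12 and 24 h. In the cytoplasm it stood at 176, 659 and 360. In both fractions the 12 h value was highest and the 24 h value lay between it and the untreated one. The nuclear level was 4.07-fold higher at 12 h (log2 ratio 2.02, interval 1.95 to 2.10) and 2.99-fold higher at 24 h (1.58, 1.5 to 1.66). In the cytoplasm it was 3.75-fold higher at 12 h (1.91, 1.85 to 1.96) and 2.05-fold higher at 24 h (1.03, 0.98 to 1.09). At 12 h, 98.3% of the genes compared in the nucleus and 95.5% in the cytoplasm had a lower ratio. Under all scalings tried the log2 ratios were no lower than 1.72 in the nucleus and 1.15 in the cytoplasm at 12 h. At 24 h the lowest, on log2(TPM + 1), were 0.95 and 0.43, both under 2-fold.

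Tlr4 itself (ENSMUSG00000039005, chromosome 4, 66827584 to 66930284, plus strand) was under 2-fold at both times in both fractions on TMM scaling. It stood at 156, 152 and 169 CPM in the nucleus and at 368, 327 and 275 CPM in the cytoplasm at 0, 12 and 24 h. The nuclear values lay within 1.08-fold of the untreated level (log2 ratios −0.04, interval −0.12 to 0.04, and 0.12, 0.04 to 0.20). Other scalings put the first between −0.32 and 0.00, and the second turned to −0.19 with total-count scaling and to −0.49 on log2(TPM + 1). The cytoplasmic values were −0.17 (interval −0.22 to −0.12) at 12 h and −0.42 (−0.47 to −0.37) at 24 h. They were −0.92 and −1.01 on log2(TPM + 1), the latter past 2-fold.

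Tlr2 (ENSMUSG00000027995, chromosome 3, 83836272 to 83841767, minus strand) was higher in the nucleus at 12 h, under 2-fold, and close to the untreated level in the cytoplasm at that time. Its nuclear level was 131, 232 and 180 CPM at 0, 12 and 24 h, and its cytoplasmic level was 212, 215 and 158 CPM. The nuclear log2 ratio was 0.83 (interval 0.75 to 0.90) at 12 h and 0.46 (0.38 to 0.54) at 24 h, the latter −0.16 on log2(TPM + 1). In the cytoplasm it was 0.02 (−0.04 to 0.08) at 12 h, where it was −0.03 with total counts and −0.73 on log2(TPM + 1), and −0.43 (−0.49 to −0.36) at 24 h. None of the 4 reached 2-fold on TMM scaling, but the cytoplasmic 24 h ratio was −1.02 on log2(TPM + 1), past 2-fold. Every base of the Tlr2 exons lies in a single transcript, so shared bases do not enter these values.

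Ly96 (ENSMUSG00000025779, chromosome 1, 16688051 to 16709611, plus strand), which encodes the MD-2 subunit that holds the lipid, had few reads. It stood at 7.17, 8.81 and 5.55 CPM in the nucleus and at 3.46, 3.29 and 2.46 CPM in the cytoplasm, from 81 to 137 reads per nuclear group and 49 to 78 per cytoplasmic group. All 4 intervals against 0 h included 0 on TMM scaling. The nuclear 24 h log2 ratio was −0.37 (−0.79 to 0.05), and on log2(TPM + 1) it was −0.86, outside that interval. In the cytoplasm the lowest values under the scalings tried were −0.68 at 12 h and −0.88 at 24 h, under 2-fold.

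Ratios of reads between 2 members within a group use no scaling between groups. They are not divided by gene length, so a ratio above or below 1 does not rank levels. There were 0.698 Cd14 reads per Tlr4 read in the untreated nucleus (interval 0.657 to 0.742), 2.92 at 12 h (2.79 to 3.06) and 1.93 at 24 h (1.83 to 2.02). In the cytoplasm the ratio was 0.477 (0.459 to 0.496), 2.01 (1.95 to 2.08) and 1.31 (1.26 to 1.36). Cd14 thus held more reads than Tlr4 at 12 and 24 h in both fractions, but it has 1732 exonic bases against 5556. By the deposited TPM, Cd14 was above Tlr4 in untreated cells already, at 96.6 against 48.9 in the nucleus and 210 against 156 in the cytoplasm. The read ratio changed by 4.18-fold in the nucleus and 4.22-fold in the cytoplasm at 12 h, and by 2.76-fold and 2.74-fold at 24 h. The log2 changes at 12 h, 2.06 (1.95 to 2.17) and 2.08 (2.01 to 2.15), had overlapping intervals. Tlr2 reads per Tlr4 read went from 0.837 to 1.52 in the nucleus at 12 h and from 0.576 to 0.658 in the cytoplasm. At 24 h the Tlr2 to Tlr4 ratio was 1.06 in the nucleus, against 0.574 in the cytoplasm, where the log2 change from 0 h was −0.01 (−0.09 to 0.07).

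**Figure D3:**
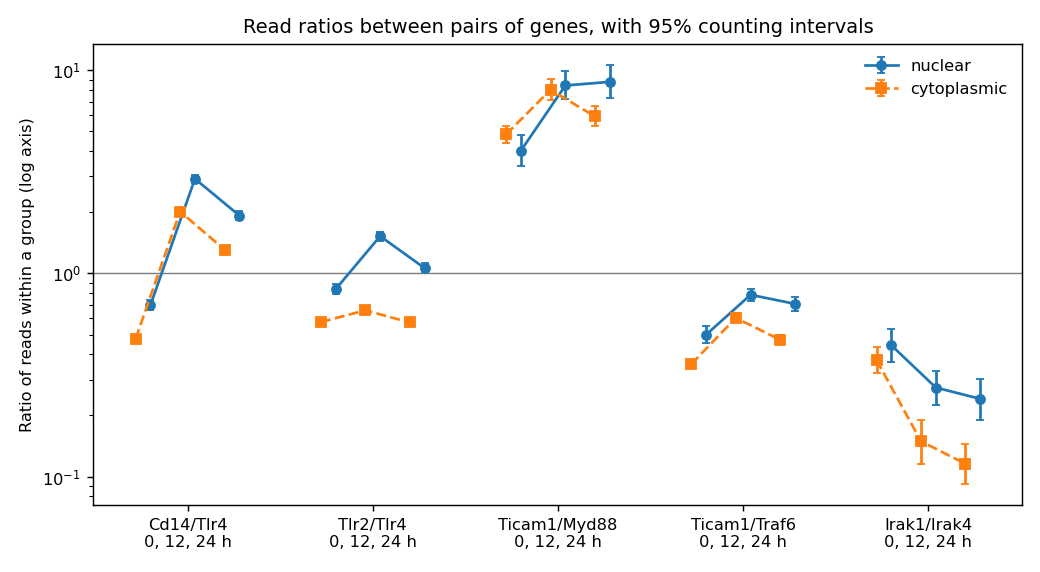
Ratio of summed reads between 2 genes within each group (log axis) at 0, 12 and 24 h from left to right, for 5 pairs, in nuclear (blue circles) and cytoplasmic (orange squares) RNA, with 95% counting intervals. Reads are not divided by gene length. The Cd14 to Tlr4 ratio is higher at 12 and 24 h than at 0 h in both fractions, and the Irak1 to Irak4 ratio is lower.

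Of the adaptors, Ticam1 passed 2-fold in the nucleus at 12 h and Myd88 did not reach 2-fold in any comparison of times. Ticam1 (ENSMUSG00000047123, chromosome 17, 56269319 to 56276786, minus strand), which encodes TRIF, stood at 40.8, 94.6 and 76.3 CPM in the nucleus at 0, 12 and 24 h. Its cytoplasmic level was 107, 154 and 104 CPM, so the 12 h value was highest in both fractions and the cytoplasmic 24 h value lay beside the untreated one. The nuclear log2 ratio was 1.22 (interval 1.08 to 1.35) at 12 h and 0.90 (0.76 to 1.04) at 24 h. The nuclear 12 h value was 0.90 on log2(TPM + 1), under 2-fold. In the cytoplasm it was 0.53 (0.44 to 0.61) at 12 h, where it was −0.23 on log2(TPM + 1), and −0.05 (−0.13 to 0.04) at 24 h.

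Myd88 (ENSMUSG00000032508, chromosome 9, 119335934 to 119341411, minus strand), the adaptor of most Toll-like receptors, was at 10.1, 11.3 and 8.71 CPM in the nucleus and at 22.1, 19.3 and 17.5 CPM in the cytoplasm. Of its exonic bases in 1 transcript only, 549 of 667 lie in a retained-intron transcript, and 290 exonic bases overlap exons of Slc22a14 and Acaa1a. The nuclear groups held 127 to 175 reads. Only the cytoplasmic 24 h interval excluded 0 against untreated cells (log2 ratio −0.34, −0.54 to −0.14). Under the scalings tried the cytoplasmic ratio was as low as −0.87 at 12 h and −0.85 at 24 h. The nuclear 24 h ratio was −0.22 (−0.57 to 0.12), and −0.65 on log2(TPM + 1). Ticam1 reads per Myd88 read were 4.02 in the untreated nucleus, 8.41 at 12 h and 8.76 at 24 h. In the cytoplasm they were 4.83, 8.0 and 5.92, and all 4 intervals of the change excluded 0.

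The kinases went different ways. Irak1 (ENSMUSG00000031392, X chromosome, 74013914 to 74023918, minus strand), the kinase that links MyD88 to TRAF6, stood at 10.6, 9.07 and 6.51 CPM in the nucleus and at 10.7, 4.6 and 4.36 CPM in the cytoplasm at 0, 12 and 24 h. Its cytoplasmic level was 2.34-fold lower at 12 h (log2 ratio −1.22, interval −1.62 to −0.84) and 2.46-fold lower at 24 h (−1.30, −1.67 to −0.94). On log2(TPM + 1) these were −0.66 and −0.64, under 2-fold. The deposited TPM in the cytoplasm was 0.958, 0.242 and 0.257, each below the added 1, so that scale understates the difference. In the nucleus the log2 ratios on TMM scaling were −0.22 (−0.55 to 0.11) and −0.70 (−1.08 to −0.33). The latter was −1.003 with total counts and then just past 2-fold. The gene has 22 annotated transcripts, and 259 of the 383 bases that lie in 1 of them only are in retained-intron transcripts, and 141 exonic bases overlap the microRNA genes Mir5132 and Mir718, so how far these values follow the coding transcripts is not known.

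Irak4 (ENSMUSG00000059883, chromosome 15, 94543643 to 94581815, plus strand), the kinase that acts first, was under 2-fold in all comparisons of times. Its exons overlap those of Twf1 over 395 bases, and the strand setting of the counting is not given. Its levels were 23.9, 33.0 and 27.0 CPM in the nucleus and 28.7, 30.8 and 37.8 CPM in the cytoplasm, with log2 ratios of 0.47 (interval 0.28 to 0.66) in the nucleus at 12 h and 0.40 (0.24 to 0.55) in the cytoplasm at 24 h, the latter −0.18 on log2(TPM + 1). Irak1 reads per Irak4 read went from 0.375 in the untreated cytoplasm to 0.149 at 12 h and 0.116 at 24 h, a log2 change of −1.33 (−1.74 to −0.92) and −1.70 (−2.08 to −1.31). In the nucleus this ratio was 0.443, 0.274 and 0.241.

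Irak3 (ENSMUSG00000020227, chromosome 10, 120141648 to 120202130, minus strand), the inhibitory member, was close to the lower limit of what the depth allows. In the nucleus 14, 47 and 35 reads were counted at 0, 12 and 24 h, or 0.850, 3.02 and 2.40 CPM. The cytoplasmic groups held 4, 4 and 3 reads and were under the minimum for a comparison. The nuclear log2 ratio was 1.83 (interval 0.94 to 2.81) at 12 h and 1.5 (0.57 to 2.50) at 24 h. None of its bases in 1 transcript only is coding, and 220 exonic bases overlap Gm47009 and Tmbim4. On log2(TPM + 1), which understates differences of low genes, the ratios were 0.37 and 0.18.

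Traf6 (ENSMUSG00000027164, chromosome 2, 101678429 to 101701669, plus strand), the ubiquitin ligase on which the MyD88 arm converges, was higher than untreated in the nucleus and lower in the cytoplasm, without reaching 2-fold on TMM scaling. It stood at 81.6, 121 and 108 CPM in the nucleus and at 299, 255 and 220 CPM in the cytoplasm. The nuclear log2 ratio was 0.56 (interval 0.46 to 0.67) at 12 h and 0.40 (0.29 to 0.51) at 24 h, the latter −0.21 on log2(TPM + 1). The cytoplasmic log2 ratio was −0.23 (−0.29 to −0.17) and −0.44 (−0.50 to −0.39), and on log2(TPM + 1) it was −0.97 and −1.03, the latter past 2-fold. Ticam1 reads per Traf6 read went from 0.499 to 0.784 in the nucleus and from 0.358 to 0.604 in the cytoplasm at 12 h.

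**Figure D4:**
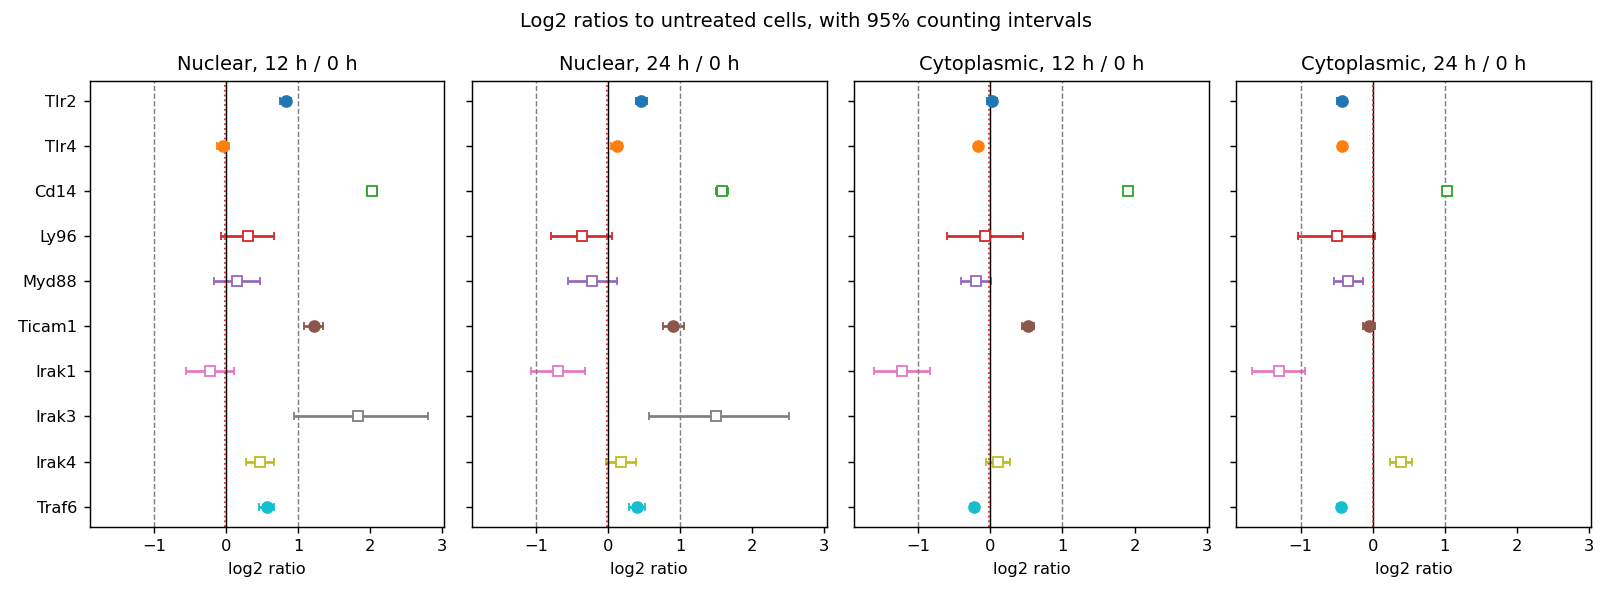
Log2 ratios of 12 or 24 h to 0 h with 95% counting intervals for each gene in each fraction. Dashed lines mark 2-fold and the dotted red line the median of all genes compared; Cd14 lies beyond 2-fold in all 4 panels, and Irak3 is not drawn for the cytoplasm, where it had 3 or 4 reads per group.

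Counted together, 2 of 10 members were 2-fold higher in the nucleus at 24 h (Cd14 and Irak3) and none lower, where 7.93% of all genes were higher and 5.73% lower. In the cytoplasm at 12 h, 1 of 9 was higher (Cd14) and 1 lower (Irak1), beside 11.9% and 8.65% of 11751 genes compared. At 24 h again 1 of 9 was higher and 1 lower, beside 11.3% and 5.78%. Counts of 1 in 9 are near these shares. The members' median log2 ratio in the cytoplasm was −0.07 at 12 h and −0.42 at 24 h, where the medians of all genes were −0.02 and 0.01. Of the 9 members, 7 had a negative ratio at 24 h, and the 2 with a positive one were Cd14 and Irak4, the latter negative on log2(TPM + 1).

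Most members were lower at 24 h than at 12 h, each under 2-fold. In the nucleus 9 of 10 log2 ratios of 24 to 12 h were negative, 8 with an interval below 0, and Tlr4 (0.16, but −0.17 on log2(TPM + 1)) was the exception. None was called, beside 1.95% of all genes higher and 1.12% lower. The lowest was Ly96 (−0.67, interval −1.08 to −0.26), and Cd14 was at −0.44 (−0.50 to −0.39). In the cytoplasm 8 of 9 were negative, 5 with an interval below 0 (Myd88 and Irak1 were at 0.02 on log2(TPM + 1)), led by Cd14 (−0.87, −0.92 to −0.83) and Ticam1 (−0.57, −0.66 to −0.49), while Irak4 was at 0.29 (0.13 to 0.46). None was called there either, beside 3.29% of genes higher and 1.66% lower. The members' medians were −0.35 in the nucleus and −0.25 in the cytoplasm, and the medians of all genes were 0.00 in both. The share of all genes with an interval below 0 was not counted. For the negative members, 3.98% (Ly96) to 30.1% (Traf6) of genes compared in the nucleus had a lower ratio. In the cytoplasm this was 2.50% (Cd14) to 40.7% (Irak1). These comparisons share their 12 h and 24 h groups with those against 0 h.

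Scaling bore on all these ratios. With total counts in place of TMM, the all-gene median shifted by −0.20 (12 h) and −0.30 (24 h) in the nucleus and by −0.05 and 0.02 in the cytoplasm. On log2(TPM + 1) the shifts were −0.27 and −0.56 in the nucleus and −0.69 and −0.56 in the cytoplasm. Among all genes called at 12 h, the share that was higher went from 52.6% to 31.9% (total counts) or 31.3% (TPM) in the nucleus, and from 58.0% to 14.5% (TPM) in the cytoplasm. At 24 h it went from 58.1% to 27.5% or 12.3% in the nucleus, and from 66.2% to 20.1% (TPM) in the cytoplasm. From 12 to 24 h the median shifted by −0.10 (total counts), −0.30 (TPM) and −0.11 (TMM without the most abundant gene) in the nucleus, where the higher share of called genes went from 63.7% to 44.2%, 8.52% and 43.7%, and by 0.15 (TPM) in the cytoplasm. Several members changed sign with these shifts, not only those near 0: in the cytoplasm at 12 h Ticam1 went from 0.53 to −0.23 on log2(TPM + 1). Cd14 was positive in the nucleus and cytoplasm at both times in all 6 scalings.

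The nuclear and cytoplasmic fractions were then compared at each time, to ask where the RNA of each member was found. Only relative values are possible, because the level between fractions was set by TMM scaling over all 6 groups and the amount of RNA in a fraction is not known. At 0 h, 8 of 10 members were at least 2-fold lower in the nucleus and none higher, beside 32.1% of 17902 genes lower and 47.9% higher. Traf6 was lowest (log2 ratio −3.08, interval −3.17 to −3.00), with only 8.56% of genes below it. Ticam1 (−2.60), Tlr4 (−2.44), Myd88 (−2.33), Tlr2 (−1.91) and Cd14 (−1.89) followed, then Irak4 (−1.47) and Irak1 (−1.23). Ly96 was at −0.16 (−0.58 to 0.28) and Irak3 at 1.05 (−0.62 to 3.11). The members' median was −1.90 and that of all genes 0.83. Total counts put the all-gene median 1.36 higher, and 3 members were then 2-fold lower and 2 higher. At 12 and 24 h the shifts were 1.17 and 1.03. TPM moved it by 0.53, 0.78 and 0.45 at 0, 12 and 24 h, median-of-ratios factors by −0.43, −0.39 and −0.31, and TMM without the most abundant gene by −0.33, −0.29 and −0.40. The share of higher genes among those called at 0 h was 59.9%, and 78.9% with total counts.

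At 12 h, 7 members were lower and Irak3 was higher in the nucleus, beside 30.2% of genes lower and 45.3% higher. At 24 h these counts were 7 and 1, beside 30% lower and 44.7% higher. With total counts only 2 were lower at each time, Traf6 with Tlr4 at 12 h and with Myd88 at 24 h, and 2 were higher, Irak3 and Ly96. On log2(TPM + 1), 2 were lower at 12 h (Tlr4 and Traf6) and 3 at 24 h (Myd88 as well). Traf6 was at −2.25 and −2.23, Tlr4 at −2.27 and −1.89, Ticam1 at −1.87 and −1.64, and Cd14 at −1.74 and −1.34. Tlr2 was at −1.06 (interval −1.13 to −0.99) and −1.01 (−1.08 to −0.93), just past 2-fold, and these turned to 0.11 and 0.02 with total counts. Irak3 stood at 2.44 (0.99 to 4.37) and 2.80 (1.13 to 5.15), resting on 4 and 3 cytoplasmic reads.

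**Figure D5:**
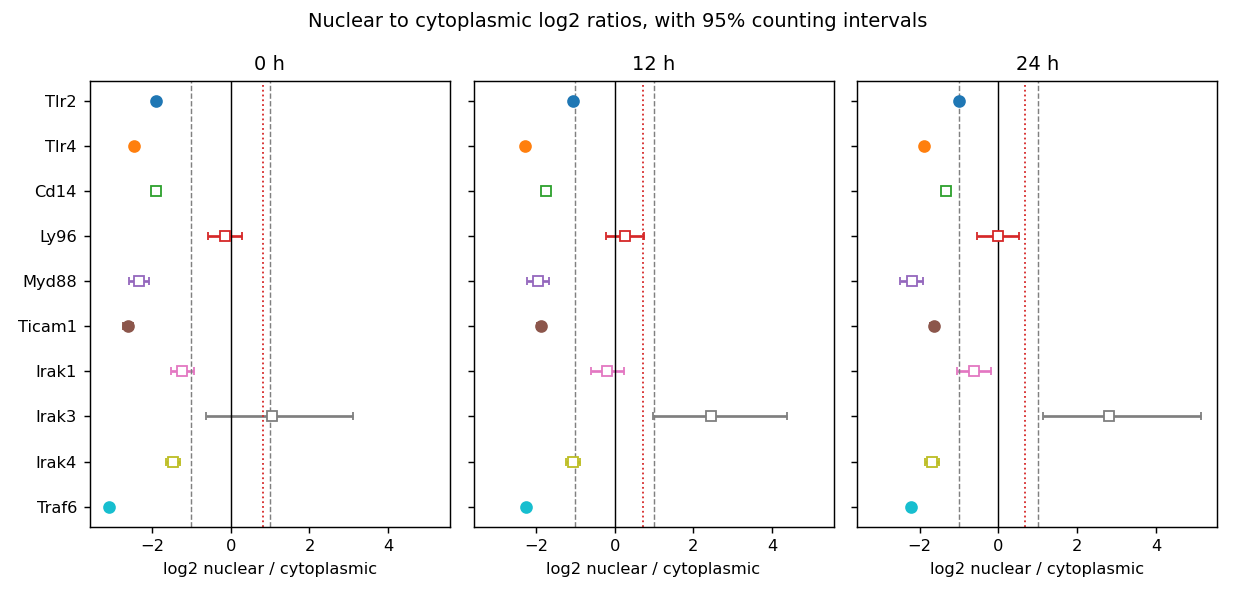
Log2 ratio of nuclear to cytoplasmic level with 95% counting intervals for each gene at 0, 12 and 24 h. Dashed lines mark 2-fold and the dotted red line the median of all genes compared, which lies between 0.67 and 0.83; 8 of 10 members lie left of −1 at 0 h and 7 at 12 and 24 h.

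The change of that ratio from 0 h was positive for all 10 members at 12 h and for 9 at 24 h on TMM scaling, and for 8 and 7 with total counts. The members' medians were 0.57 and 0.58, and the medians of all genes 0.13 and 0.04. At 12 h the share of genes with a lower change ran from 51.0% (Cd14) to 94.6% (Irak3) over the members. At 24 h it ran from 39.4% (Irak4) to 97.9% (Irak3), so some members lay near the middle of all genes. Of the 10, Irak1 was called higher at 12 h (log2 change 1.04, interval 0.55 to 1.54), beside 6.92% of all genes higher and 7.55% lower. It was at 0.85 with total counts and at 0.47 on log2(TPM + 1). The latter scale understates its change, as its TPM was below the added 1 in every group. At 24 h none was called, beside 5.79% and 9.24%, while with median-of-ratios factors Tlr2 (1.012) and Ticam1 (1.07) were. Irak3 changed by more than Irak1, by 1.39 (−0.79 to 3.56) and 1.75 (−0.59 to 4.08), and was not called because its intervals included 0. Tlr2 (1.26), Ticam1 (1.13) and Traf6 (1.23) passed 2-fold at 12 h on log2(TPM + 1). Total counts moved the median of this change by −0.19 and −0.33 at 12 and 24 h, and the higher share of called genes from 47.8% to 28.0% and from 38.5% to 10.1%. On TPM the 12 h median moved by 0.33 and that share to 89.99%. Ticam1 was at 0.73 (0.58 to 0.88) and 0.96 (0.80 to 1.12), Tlr2 at 0.85 (0.75 to 0.95) and 0.90 (0.79 to 1.00), and Traf6 at 0.83 (0.72 to 0.95) and 0.86 (0.74 to 0.97). Tlr4 was at 0.17 and 0.55 and Cd14 at 0.16 and 0.56, and both 12 h values were slightly negative with total counts (−0.02 and −0.03). Irak4 was the only negative value at 24 h (−0.21, −0.46 to 0.04), though with total counts Ly96 and Myd88 were at −0.20 as well.

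The rest of the pathway was read from 6 lists with 93 genes, of which 75 were compared in the nucleus and 63 in the cytoplasm. In the nucleus 5 were higher and 1 lower at 12 h, and 3 higher and 2 lower at 24 h, and in the cytoplasm 4 and 2, and 4 and 5. These shares were below those of all genes given above in 7 of the 8 counts, all but the lower genes in the cytoplasm at 24 h. These values rest on TMM scaling alone. The median log2 ratio of the lists together was 0.18 and 0.04 in the nucleus and 0.14 and 0.01 in the cytoplasm.

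Among other Toll-like receptors, Tlr9, the endosomal receptor for unmethylated DNA, was higher. It went from 60.3 to 209 and 163 CPM in the nucleus (log2 ratio 1.79, interval 1.69 to 1.90, and 1.43, 1.32 to 1.54). In the cytoplasm it went from 43.1 to 87.5 CPM at 12 h (1.02, 0.90 to 1.14), and at 24 h its log2 ratio was 0.71 (0.59 to 0.83), under 2-fold. It was the only one of 5 receptors compared in the nucleus and, at 12 h, of 3 in the cytoplasm to pass 2-fold, and its exons lie in 1 transcript only. Of the genes for lipopolysaccharide delivery and receptor folding, none of 11 passed in the nucleus. In the cytoplasm, of 10, Casp4, the intracellular lipopolysaccharide sensor, was at 1.34 (0.94 to 1.75) at 12 h, and Ly86, which encodes MD-1, the partner of the related receptor CD180, was at −1.05 (−1.28 to −0.82) at 24 h.

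Of the other adaptors and IRAK partners, none of 8 passed in the nucleus and 1 of 7 in the cytoplasm. This was Irak2, a kinase of late MyD88 signalling, at 1.99 (1.00 to 3.07) and 1.68 (0.69 to 2.76), from 12 untreated reads. In the TRAF6, TAK1 and IKK arm none of 20 genes passed in the nucleus. In the cytoplasm 1 of 15 was lower at 12 h and 2 at 24 h, namely Tifa, an adaptor that binds TRAF6, at −1.27 and −1.08 and Rnf31, a subunit of the linear ubiquitin ligase, at −1.49 at 24 h from 57 and 18 reads.

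In the TRIF, TBK1 and IRF arm Tradd, an adaptor of death receptors and TRIF, was the only one of 12 higher in the nucleus, at 1.09 (0.83 to 1.35) and 1.32 (1.06 to 1.57). Irf7, the interferon-inducible regulator, was at −1.15 in the nucleus and −1.32 in the cytoplasm from 12 to 24 h. Against 0 h in the cytoplasm Irf7 was at −1.18 and Irf3 at 1.62 (0.90 to 2.40, 22 and 60 reads) at 24 h. Of 19 negative regulators compared in the nucleus, 3 were higher and 1 lower at 12 h. Tnfaip3, which encodes the deubiquitinase A20, was at 1.67 (1.44 to 1.91), Atf3 at 1.32 (0.46 to 2.23), Trim30a at 1.16 (1.06 to 1.27) and the inhibitory receptor gene Cd300a at −1.40 (−1.90 to −0.92). At 24 h Atf3 was at 1.22, Cd300a at −1.92 and Il1rl1, the receptor for interleukin-33, at −1.08. Tnfaip3 (0.98, 0.72 to 1.24) and Trim30a (0.58) were then under 2-fold. They were under 2-fold in the cytoplasm as well, Tnfaip3 at 0.53 and −0.09 (−0.46 to 0.27) and Trim30a at 0.82 and 0.26 at 12 and 24 h. In the cytoplasm Atf3 was at 1.97 and 1.12, Cyld, another deubiquitinase, at −1.42 and −1.07, and Tnip1, a partner of A20, at 1.76 (0.79 to 2.84) at 24 h from 12 untreated reads. Of the genes named here apart from the members, only Tlr9, Ly86 and Trim30a had at least 80% of their exonic bases in 1 transcript only.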

How the data were processed

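Per the labels' protocols, BV2 cells were lysed by hypotonic swelling and NP-40, a mild detergent, the washed nuclear pellet gave the nuclear RNA, and ethanol precipitation of the supernatant gave the cytoplasmic RNA. HISAT2 2.2.0, featureCounts, DESeq2 and the build GRCm38 are named in the submitters' processing notes. The authors deposited 1 column per group: after multiplication by 3, 100% of the values were whole within 0.001, so the columns were read as means of 3 libraries. These expected counts, as deposited by the authors, were multiplied by 3 and rounded to give summed reads. The authors also deposited TPM, in which the length of a gene was the sum of its annotated transcripts for 97.8% of 10674 genes checked. With no values per library, tests for replicated counts were not run. Nothing in the labels says that the 3 libraries came from separate cultures. The number of per-sample columns not used was 0.

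Symbols, positions and transcripts came from GENCODE M21 on GRCm38. TMM factors (30% of log ratios and 5% of mean expression values trimmed at each end) were computed over the genes compared, in each fraction for time comparisons and over all 6 groups for comparisons of fractions. A gene was compared where its CPM reached the equivalent of a mean count of 10 at the median depth in at least 1 group. Ratio intervals (95%) are exact Clopper-Pearson intervals of 1 group's share of the summed reads, or normal approximations for changes of ratios. They cover counting error only. The floor of 3 reads corresponds to 0.187 to 0.205 CPM in nuclear and 0.134 to 0.181 CPM in cytoplasmic groups. The software was Python 3.11.15 with scipy 1.17.1, pandas 2.3.3, numpy 2.4.6 and, for figures, matplotlib 3.10.9, and the code was tested on simulated data. The members, the 6 lists and the comparisons were chosen with earlier results of these data known. List genes were named where they passed 2-fold with a mean of at least 1 CPM, at most 4 per list and comparison.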

Additional observations from a re-analysis of the deposited data

Results flagged for a closer look

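For 3 genes the nuclear and cytoplasmic log2 ratios to untreated cells had opposite signs, each with a counting interval that excluded 0. Traf6 was positive in the nucleus and negative in the cytoplasm at both times, with a change of the nuclear to cytoplasmic log2 ratio of 0.83 at 12 h and 0.86 at 24 h. Tlr2 (0.90) and Tlr4 (0.55) showed the same signs at 24 h. The difference between the fractions was not tested across libraries. The nuclear ratio of Traf6 stayed positive at 12 h under every scaling tried, whereas at 24 h the nuclear ratios of Traf6, Tlr2 and Tlr4 were −0.21, −0.16 and −0.49 on log2(TPM + 1).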

How the results depend on the processing

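No paired analysis was possible because the table holds 1 mean per group, and for the same reason leaving out single replicates was not run. With TMM computed without the gene of the highest count share or with no filter on low counts, every count of called members stayed within 1.5 times its main value, as did those of the time comparisons with all 6 groups scaled together. With total counts, 1 member (Irak1) was lower in the nucleus at 24 h. Between the fractions 2, 2 and 2 were then higher and 3, 2 and 2 lower in the nucleus at 0, 12 and 24 h, and 0 had a higher nuclear to cytoplasmic ratio at 12 h. Irak1 at 0 h (0.14), Tlr2 (0.11) and Irak4 (0.11) at 12 h and Tlr2 at 24 h (0.023) turned from lower to positive. On log2(TPM + 1), 1 and 0 members were higher in the nucleus at 12 and 24 h. In the cytoplasm 0 were lower at 12 h, and 0 were higher and 3 (Tlr2, Tlr4 and Traf6) lower at 24 h. Irak1 was thus not among the lower, but its TPM was below the added 1 in every group, so this scale understates its difference. Between the fractions 2 were lower at 12 h, and 0 higher and 3 lower at 24 h, and 3 had a higher nuclear to cytoplasmic ratio at 12 h. Tlr2 (0.14) and Irak4 (0.12) turned positive between the fractions at 12 h. Median-of-ratios factors gave 2 members with a higher nuclear to cytoplasmic ratio at 24 h. A 1.5-fold threshold gave 1 lower member in the nucleus at 24 h against 0 h and 1 at 24 h against 12 h, 1 lower in the cytoplasm at 24 h against 12 h, and 4 and 4 with a higher nuclear to cytoplasmic ratio at 12 and 24 h. Over the 4 members with at least 80% of exonic bases in 1 transcript only, a choice made after seeing the data, 1 was higher in the nucleus at 12 h and 0 at 24 h. In the cytoplasm 0 were higher and 0 lower at both times, 4 were lower in the nucleus than in the cytoplasm at each time with 0 higher at 12 and 24 h, and 0 had a higher nuclear to cytoplasmic ratio at 12 h. Apart from fewer members being counted, the cause of these differences was not tested. Depth limits Irak3 and Ly96 most.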

Other observations

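Genes with the most similar course over the 6 group means were sought among 5642 other protein-coding genes with at least 5 CPM in every group, by the root mean square distance of centred log2 levels. Nearest to Cd14 were Rab11fip1 (0.15), Osm (0.19), which encodes the cytokine oncostatin M, and Dusp10 (0.20), a phosphatase of stress kinases. Nearest to Tlr4 were Tsn (0.07), Pknox1 (0.07) and Dbnl (0.07), and nearest to Tlr2 were Hdlbp (0.09), Serinc1 (0.11) and Plod3 (0.11). Nearest to Ticam1 were Ssr1 (0.11), Arhgap35 (0.12) and N4bp1 (0.12), and nearest to Traf6 were Trim35, Hs1bp3 and Arl6ip1 (0.07 to 0.08). Sec22b (0.03) was nearest to Myd88 and Nlk (0.07) to Irak4. Cd14 had the largest distance to its nearest gene among the 7 members that could be searched. The distance was not scaled to the size of a gene's changes, so this ranking does not show an unusual course. With 6 points from 1 set of libraries, these distances are descriptions.

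The glycolytic gene Gapdh, whose RNA is usually taken as cytoplasmic, was higher in the nucleus at every time (log2 ratio 1.59, 1.86 and 1.38 at 0, 12 and 24 h), while beta-actin, Actb, was lower (−3.74, −2.96 and −3.07). At 0 h the counting interval was 1.43 to 1.74 for Gapdh and narrower for Actb, −3.79 to −3.69. Gapdh has 13 annotated transcripts and 50.1% of its exonic bases in 1 of them only, and Actb has 9 and 24.0%. The part of shared bases in these ratios was not tested.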
